A study of Homo sapiens with 6 samples.

Results

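To examine the protein folding stress pathways of bladder cancer cells after disruption of FOXC1, 46 genes of the heat shock response, the unfolded protein response and the integrated stress response were taken by symbol from an RNA-seq count table of 57820 genes. The libraries came from J82 cells, a long-established line from a human bladder carcinoma, grown in medium with serum. The 3 control libraries carry the genotype label control, and per the study's methods these cells carried a vector control. The 3 libraries labelled FOXC1 KO came from J82 cells given a lentiviral CRISPR/Cas9 construct (LentiCRISPRv2) against FOXC1, which encodes a forkhead transcription factor, and selected with puromycin. Apart from this puromycin, which the methods place before the experiments, the sources used here name no stress agent for these libraries. They do not say whether the drug was present at harvest or was also given to the control cells. The sources used here do not say whether the KO libraries came from 1 clone or from several, nor whether the 3 replicates of a group were separate cultures, and the p-values therefore measure only the spread between these libraries, which may be technical.

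Cells answer misfolded protein with 3 linked transcriptional programmes. In the cytosol and nucleus, heat shock factor HSF1 is held inactive by chaperones, is freed when unfolded protein occupies them, and then drives the genes of HSP70, HSP90, HSP40 and the small heat shock proteins. In the endoplasmic reticulum (ER), the sensors IRE1 (ERN1), PERK (EIF2AK3) and ATF6 are restrained by the chaperone BiP (HSPA5). Their release yields the spliced transcription factor XBP1, the cleaved form of ATF6 and, through phosphorylation of eIF2, the preferential translation of ATF4. PERK shares this last step with kinases that respond to amino acid shortage, haem shortage and double-stranded RNA, and the joint pathway is called the integrated stress response. Its product ATF4 is controlled largely at translation, so transcript counts do not report its protein level. Solid tumours often depend on these programmes for growth under protein synthesis load.

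Control elements of these programmes can be read in the promoters of the members. RefSeq promoters on GRCh38.p14, running from 250 bases before to 50 bases after the start of each gene, were found for 44 of the 46 members and searched on both strands. The ER stress element joins CCAAT to CCACG over a gap of 9 bases, and is the site at which NF-Y and ATF6 bind together. It was present in 4 member promoters (9.09%) and in 0.0806% of all 27305 promoters. The members were HSPA5, HSP90B1 with 2 copies, XBP1 and CRELD2, shown here 5′ to 3′ on the strand of the gene with the element in capitals. An element that lies on the other strand reads as its reverse complement, from CGTGG to ATTGG.
HSPA5, chr9:125241383-125241417, minus strand: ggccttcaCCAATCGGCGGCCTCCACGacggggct
HSP90B1, chr12:103930208-103930242, plus strand: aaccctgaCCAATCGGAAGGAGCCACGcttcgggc
HSP90B1, chr12:103930313-103930347, plus strand: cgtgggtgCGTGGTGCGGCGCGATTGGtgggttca
XBP1, chr22:28800595-28800629, minus strand: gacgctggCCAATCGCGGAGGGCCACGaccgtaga
CRELD2, chr22:49918546-49918580, plus strand: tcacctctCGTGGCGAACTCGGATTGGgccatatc

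The shorter ER stress element II joins ATTGG to CCACG over a gap of 1 base. It was present in 3 member promoters (6.82%) and in 0.0549% of all promoters, and the members were HYOU1 with 2 copies, SDF2L1 and HERPUD1. The HERPUD1 stretch is shown longer, because it also holds a C/EBP-ATF response element upstream.
HYOU1, chr11:119057372-119057398, minus strand: ccccgtgaCGTGGTCCAATcccaggcc
HYOU1, chr11:119057266-119057292, minus strand: gcctgggaCGTGGTCCAATgagtacgc
SDF2L1, chr22:21642106-21642132, plus strand: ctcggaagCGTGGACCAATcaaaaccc
HERPUD1, chr16:56931958-56932043, plus strand: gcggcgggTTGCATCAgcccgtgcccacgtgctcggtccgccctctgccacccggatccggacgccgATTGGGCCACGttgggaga

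The C/EBP-ATF response element, TGATGNAA, is the composite site of ATF4 and C/EBP factors. It was present in 5 member promoters (11.4%) and in 3.67% of all promoters, in ASNS, CHAC1, HERPUD1, HSPA4L and SLC3A2. The cyclic AMP response element TGACGTCA was present in PPP1R15A alone of the members (2.27%, against 1.98% of all promoters). The stretches of the response genes ASNS, CHAC1 and PPP1R15A are shown because their counts are taken up with the ATF4 branch.
ASNS, chr7:97872461-97872484, minus strand: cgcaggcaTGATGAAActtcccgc
CHAC1, chr15:40953254-40953277, plus strand: ccctgccgTTGCATCActcctgcc
PPP1R15A, chr19:48872355-48872378, plus strand: tctcttcgTGACGTCAgcacgccg

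The heat shock element was searched as 3 alternating GAA and TTC units with 2 bases between units. It was present in HSPA8, with 2 copies, and in DNAJA1, which are 4.55% of the member promoters, and in 0.487% of all promoters. The forkhead core GTAAACA, a site that FOXC1 and many other forkhead proteins can bind, was present in 1 member promoter, that of HSP90AA1 (2.27%, against 3.41% of all promoters). A match describes these letters in this window, and its absence says nothing about a factor.
HSPA8, chr11:123062346-123062374, minus strand: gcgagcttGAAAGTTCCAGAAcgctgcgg
HSPA8, chr11:123062171-123062199, minus strand: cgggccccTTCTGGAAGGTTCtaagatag

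Library depth overlapped between the groups and was lowest in KO replicate 1. The control libraries held 22900531 to 25013311 counts and the KO libraries 18408134 to 25350908, and the 46 members together took 1.72% to 1.80% of the counts of every library. FOXC1 itself (chromosome 6, 1610150 to 1614132, plus strand, GRCh37) stood at 18.4, 16.9 and 19.3 CPM (counts scaled to the library size) in control replicates 1 to 3 and at 24.1, 22.2 and 21.1 CPM in the KO libraries. Its transcript was thus not lower in the libraries labelled KO, since its log2 fold change was 0.30 (adjusted p = 0.0127, SE 0.091). It was not called, being under 1.3-fold, and its adjusted p was not under 0.05 without control replicate 2 (0.25, adjusted p = 0.0827) and without KO replicate 1 (0.25, adjusted p = 0.0784). An edit that disrupts the protein can leave the transcript in place, so these counts do not check the knockout. The paper checked knockout clones by Western blotting and reports a decrease of FOXC1 protein in J82 knockout cells. It does not state whether the blotted cells were those of these libraries. Of 16 urothelial and epithelial markers, 8 were under 1 CPM in every library (the uroplakins UPK1A, UPK1B, UPK2 and UPK3A, then KRT20, KRT5, CDH1 and TP63), and 7 of the other 8 fell (87.5%, beside 8.39% of all tested genes). The summed level of the list was 3183 to 4005 CPM in control and 2490.1 to 2767 CPM in KO libraries. Of 10 mesenchymal markers, 0 were under 1 CPM in every library, 3 rose and 2 fell, with sums of 2229 to 2439 CPM and 2072 to 2353 CPM. Leukocyte markers (4 of 5 under 1 CPM in every library) summed to 3.81 to 4.68 CPM in control and 6.11 to 6.92 CPM in KO libraries, and of 4 endothelial markers 3 were matched, with VWF and KDR under 1 CPM. The third, CDH5, was at 0 to 0.0393 CPM in control and at 0.714 to 1.11 CPM in KO libraries and was called higher, as was the leukocyte marker CD14 (log2 fold change 0.62, adjusted p = 0.00129). The endothelial list summed to 0.590 to 0.901 CPM in control and 1.55 to 1.90 CPM in KO libraries. The markers named were picked out after their values were seen. The part of these marker differences in the results below was not tested.

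Of the 43 tested members, 4 were called, and more passed with smaller changes in both directions. Called here means past 1.3-fold with an adjusted p under 0.05, by edgeR's quasi-likelihood test with Benjamini-Hochberg adjustment over all 15647 tested genes. ERN1, the IRE1 sensor of the ER, and CHAC1, a glutathione-degrading enzyme of the ATF4 branch, rose. DDIT3, which encodes the transcription factor CHOP, and HSPE1, the mitochondrial co-chaperonin HSP10, fell. These 4 members are 9.30% of those tested, beside 16.0% of all tested genes. The background was 7.57% for higher and 8.39% for lower calls, against 2 members in each direction. Without the fold threshold, 10 members had an adjusted p under 0.05 and a higher level in KO, and 8 a lower level, so 18 of 43 (41.9%) beside 29.4% of all tested genes. By direction these were 23.3% higher and 18.6% lower, beside 15.2% and 14.3% of all tested genes. The control and KO values did not overlap for 18 of the 43 tested members, beside 41.3% of all tested genes.

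The fold changes of the members lay around zero. Their log2 fold changes ran from -0.91 for DDIT3 to 0.50 for ERN1 with a median of 0.015, beside a median of -0.00084 over all tested genes, and 25 were above and 18 below zero. An unadjusted p under 0.05 was found for 22 of the 43 members, beside 6221 of all 15647 tested genes. By edgeR or by DESeq2, 0 members of 43 changed more than 2-fold, and by edgeR 648 of the 15647 tested genes did. By programme, the median was 0.0093 for the 16 tested heat shock genes, 0.0092 for the 17 genes of the unfolded protein response and 0.066 for the 10 of the integrated stress response. The calls were split as 1 of 16, 1 of 17 and 2 of 10. Between replicates the members varied about as much as other genes, with a median coefficient of variation of 5.74% in control and 5.64% in KO libraries beside 6.01% and 5.95% for all tested genes that averaged 10 CPM or more. In bulk RNA a change in level per cell and a change in the share of cells expressing a gene cannot be told apart.

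**Figure D1:**
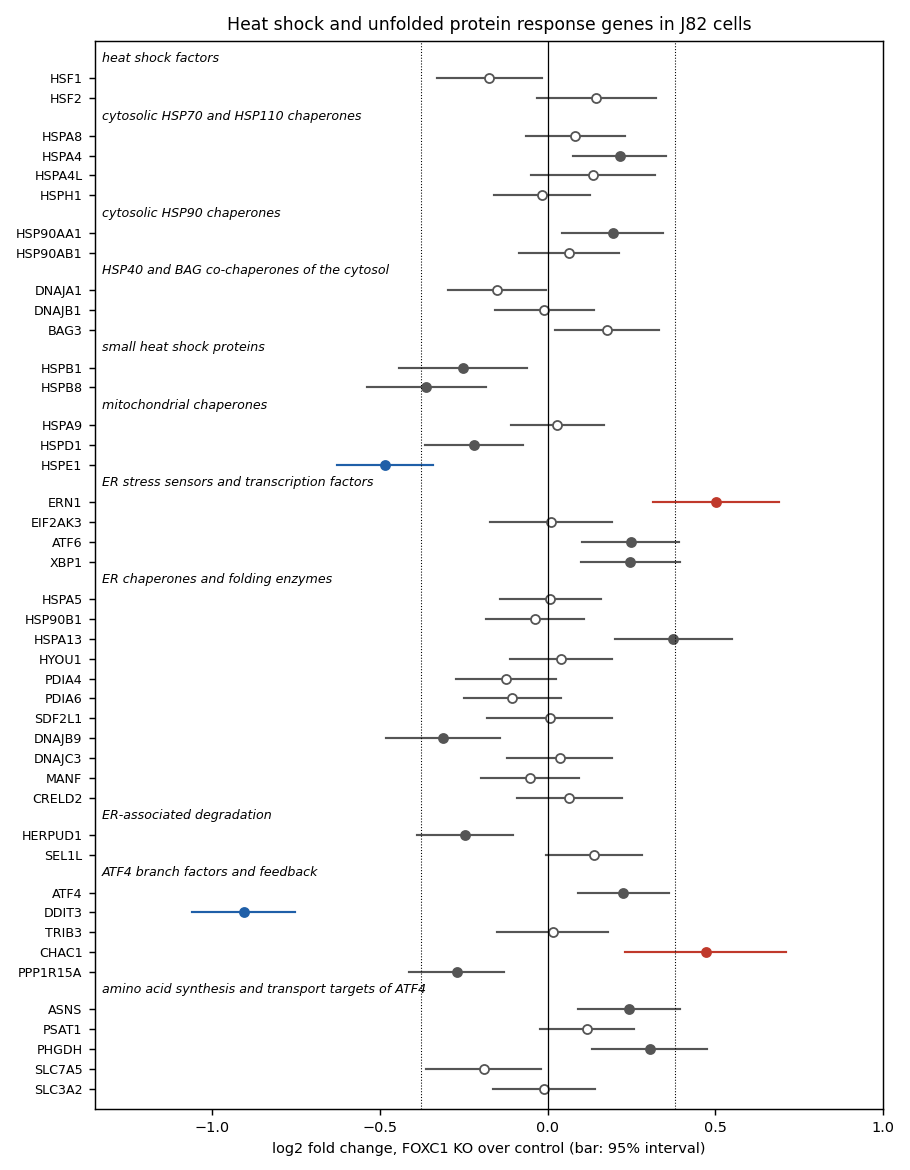
Log2 fold change of FOXC1 KO over control for the 43 tested members, grouped by role, with bars for the 95% interval and dotted lines at 1.3-fold. Red and blue points are the members called higher (ERN1, CHAC1) or lower (DDIT3, HSPE1), filled grey points had an adjusted p under 0.05 below 1.3-fold, and open points did not pass; DDIT3 at -0.91 lies apart from the rest.

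The ATF4 branch held the widest spread among the members. DDIT3 (ENSG00000175197.6, chromosome 12, 57910371 to 57915520, minus strand) encodes CHOP, a pro-apoptotic factor that dimerises with C/EBP proteins and is a classical target of ATF4. DDIT3 was read at 75.9, 82.5 and 83.2 CPM in control replicates 1 to 3 and at 42.5, 43.3 and 43.0 CPM in the KO libraries. All 3 KO values lay well under the lowest control value. The mean fell from 80.5 ± 4.03 to 43.0 ± 0.395 CPM (SD, n = 3 each), which is 0.533 of the control level (log2 fold change -0.91, SE 0.075, adjusted p = 1.16e-10). The gene overlaps MARS1 and MBD6 on the opposite strand and holds the row of the microRNA gene MIR616, and the strand setting of the counting is not given in the sources used here. MARS1 had a log2 fold change of 0.070 (adjusted p = 0.483) and MBD6 of -0.30 (adjusted p = 0.0131). The MIR616 row held 6 to 15 counts per library, against 783 to 2118 for DDIT3.

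The 100 bases upstream of the DDIT3 start are shown because this is the member with the lowest fold change. They held no exact match to the searched motifs. Their first bases, ccaatgccggcgtgccact, read as the ER stress element except for the last base, which is t in place of G. The search took exact matches only, so these bases were not counted. Whether they act as an element was not tested.
DDIT3, chr12:57520515-57520614, minus strand, GRCh38.p14: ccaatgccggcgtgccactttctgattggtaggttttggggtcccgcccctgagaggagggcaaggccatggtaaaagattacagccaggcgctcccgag

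ATF4 itself, the bZIP factor upstream of DDIT3, moved the other way by a smaller amount. Its level was 329, 326 and 333 CPM in control and 389.8, 388 and 377 CPM in KO libraries. These values did not overlap, and the mean rose from 329 ± 3.88 to 385 ± 6.86 CPM (log2 fold change 0.23, SE 0.066, adjusted p = 0.00991), though the adjusted p was 0.0518 without control replicate 2. The ratio of DDIT3 to ATF4 counts, which needs no library scaling, was 0.231, 0.253 and 0.2498 in control and 0.109, 0.112 and 0.114 in KO libraries. The ratio means were 0.245 ± 0.0121 and 0.112 ± 0.00243, and an exact two-sided permutation test gave p = 0.1, the smallest that 3 libraries against 3 allow. This p adds nothing to the values above, because both genes had already separated without overlap in opposite directions.

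CHAC1 (ENSG00000128965.7, chromosome 15, 41245160 to 41248710, plus strand) encodes a gamma-glutamylcyclotransferase that degrades glutathione and is a target of both ATF4 and CHOP. It was a weakly expressed member with 143 to 224 counts per library, at 6.37, 6.31 and 5.66 CPM in control and at 8.86, 8.88 and 7.69 CPM in KO libraries. The lowest KO value stood above every control value. The mean rose from 6.11 ± 0.394 to 8.48 ± 0.681 CPM (log2 fold change 0.47, SE 0.12, adjusted p = 0.00287). CHAC1 and DDIT3 thus moved apart, and the ratio of CHAC1 to DDIT3 counts went from 0.0761 ± 0.00800 in control to 0.197 ± 0.0161 in KO libraries. The exact permutation p of 0.1, the smallest possible, was again fixed by the separation of both genes in opposite directions.

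PPP1R15A, which encodes GADD34, directs a phosphatase to eIF2 and so ends the response. It was read at 149.6, 144 and 144 CPM in control and at 121, 127 and 115 CPM in KO libraries. All KO values were lower, with a mean that went from 146 ± 3.25 to 121 ± 5.91 CPM (log2 fold change -0.27, SE 0.069, adjusted p = 0.00349), short of 1.3-fold. TRIB3, a pseudokinase that restrains ATF4, had a log2 fold change of 0.015 (adjusted p = 0.915) and its values overlapped between the groups. Of the 5 factors and feedback genes of this branch, 2 were higher and 2 lower at an adjusted p under 0.05. These are 40.0% each, beside 15.2% and 14.3% of all tested genes.

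Among the amino acid genes driven by ATF4, 2 of 5 had an adjusted p under 0.05, both higher in KO libraries. This is 40.0% of a small group, beside 15.2% of all tested genes that passed in the higher direction. PHGDH, the entry enzyme of serine synthesis, was read at 109, 87.5 and 86.8 CPM in control and at 114, 127 and 109 CPM in KO libraries. Control replicate 1 overlapped the KO range, and the other two controls lay below it. The mean rose from 94.5 ± 12.8 to 117 ± 9.40 CPM (log2 fold change 0.30, SE 0.084, adjusted p = 0.00641). Without control replicate 1 the log2 fold change was 0.41 (adjusted p = 2.65e-05), which is past 1.3-fold, and without KO replicate 2 it was 0.24 (adjusted p = 0.0580). ASNS, asparagine synthetase, had a log2 fold change of 0.24 (adjusted p = 0.0138), which did not pass without control replicate 2 or control replicate 3 (adjusted p of 0.0691 and 0.0787). The other three, namely PSAT1 of serine synthesis and the amino acid transporter subunits SLC7A5 and SLC3A2, had log2 fold changes of 0.12, -0.19 and -0.01 and did not pass. SLC7A5 passed in the lower direction without control replicate 2, control replicate 3 or KO replicate 2, with adjusted p of 0.0293, 0.0493 and 0.0358. The 5 tested members with a C/EBP-ATF response element in the promoter had a median log2 fold change of 0.14 and a range of -0.25 to 0.47, with 3 at an adjusted p under 0.05 and 1 called. Of all tested genes, 29.4% had an adjusted p under 0.05 and 16.0% were called.

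**Figure D2:**
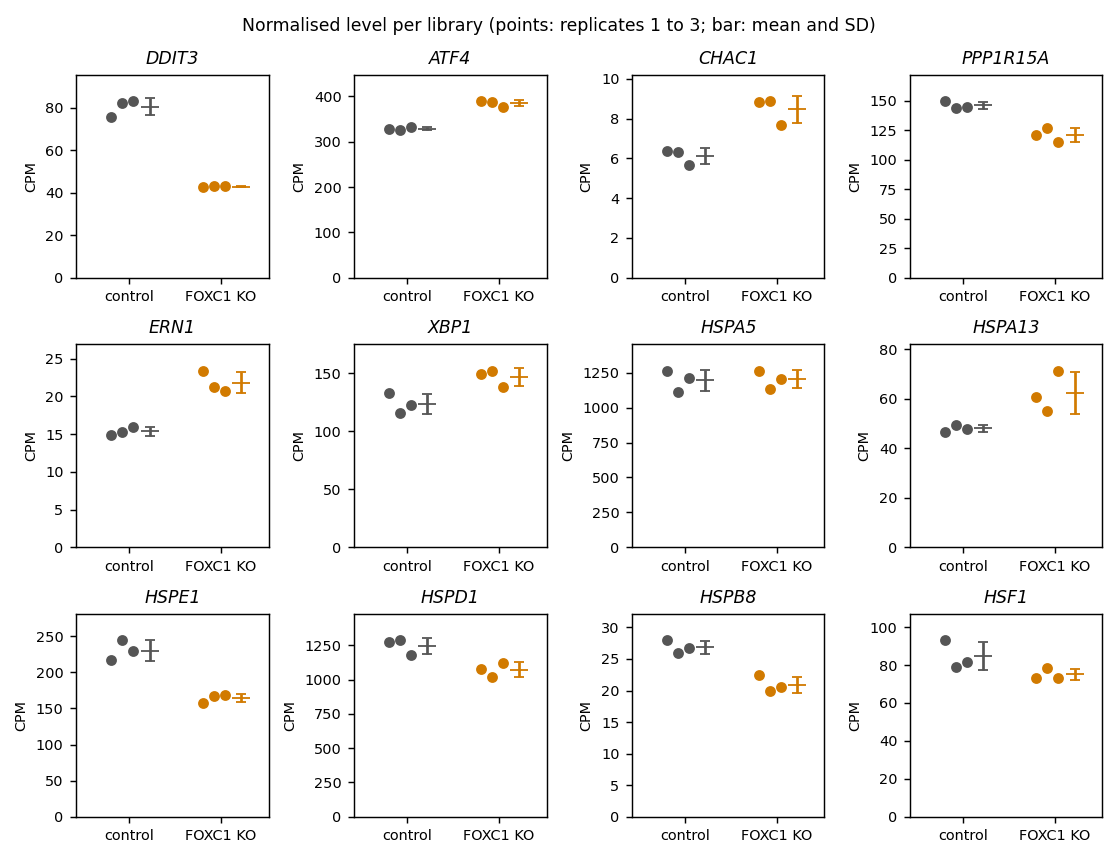
CPM of 12 members in each library (y axis from 0), with points for replicates 1 to 3 of control (grey) and FOXC1 KO (orange) and a bar for mean and SD. DDIT3 falls from 80.5 to 43.0 CPM and HSPE1 from 230.0 to 164 CPM without overlap, ERN1 and CHAC1 lie higher in KO, and the HSPA5 points overlap.

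Of the 4 sensors and factors of the unfolded protein response, 3 had an adjusted p under 0.05, all higher in KO libraries. This is 75.0% of a small group, beside 15.2% of all tested genes that passed in the higher direction. Of its 11 chaperones and folding enzymes, 9 did not pass, and the 18.2% that passed stand beside 29.4% of all tested genes. ERN1 (ENSG00000178607.11, chromosome 17, 62116440 to 62208179, minus strand) encodes IRE1, the kinase and endoribonuclease that splices XBP1. It was read at 14.8, 15.2 and 16.0 CPM in control and at 23.4, 21.2 and 20.8 CPM in KO libraries. The groups stood well apart, and the mean rose from 15.4 ± 0.587 to 21.8 ± 1.42 CPM (log2 fold change 0.50, SE 0.092, adjusted p = 0.000101). XBP1, its substrate, was at 133, 116 and 122 CPM in control and at 149.7, 152 and 138 CPM in KO libraries. These values were close but did not overlap, and the mean rose from 124 ± 8.73 to 147 ± 7.57 CPM (log2 fold change 0.25, SE 0.073, adjusted p = 0.0102), but it did not pass without control replicate 2 (0.20, adjusted p = 0.0824). Counts per gene do not separate the spliced from the unspliced form of XBP1.

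ATF6, the membrane-bound factor that is cleaved under stress, had a log2 fold change of 0.25 (adjusted p = 0.00816), which did not pass without control replicate 3 (adjusted p = 0.0573) or KO replicate 1 (adjusted p = 0.0639). EIF2AK3, which encodes the PERK kinase, had a log2 fold change of 0.0092 (adjusted p = 0.952) with an interval of -0.17 to 0.19. The summed level of the 4 sensors and factors was 258 to 276 CPM in control and 304 to 329 CPM in KO libraries. Per kilobase of exon, ERN1 and EIF2AK3 had the lowest levels of all tested members in control, at 0.802 and 1.16 CPM per kilobase. This rank depends on the length used, the union of all annotated exons (19153 and 20691 bases). By CPM alone CHAC1 was lower than both, with a control mean of 6.11 beside 15.4 and 24.0 CPM.

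HSPA5 encodes BiP, the HSP70 of the ER and the most widely used readout of ER stress. HSPA5 was read at 1264, 1114 and 1210.0 CPM in control and at 1266, 1137 and 1206 CPM in KO libraries. The values were interleaved, and the means of 1196 ± 75.7 and 1203 ± 64.2 CPM differed by 0.0085 on the log2 scale (SE 0.073, adjusted p = 0.946). Its 95% interval of -0.14 to 0.16 allows changes of that size in either direction. HSP90B1, the ER member of the HSP90 family (GRP94), had a log2 fold change of -0.04 (adjusted p = 0.740), and PDIA4, a disulphide isomerase, of -0.12 (adjusted p = 0.208).

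Of the 11 ER chaperones and folding enzymes, HSPA13 and DNAJB9 had an adjusted p under 0.05, in opposite directions. HSPA13, a microsomal HSP70, was read at 46.5, 49.6 and 48.0 CPM in control and at 60.5, 55.0 and 71.4 CPM in KO libraries. It was higher in every KO library, with KO replicate 3 furthest out. Its mean rose from 48.0 ± 1.53 to 62.3 ± 8.34 CPM, and at 0.38 on the log2 scale (SE 0.085, adjusted p = 0.00113) it lay just under the 1.3-fold threshold, log2 0.379. It passed that threshold with DESeq2 and without control replicate 2, KO replicate 1 or KO replicate 2, at log2 fold changes of 0.38, 0.40, 0.39 and 0.46, while without KO replicate 3 it was 0.26 (adjusted p = 0.0289). DNAJB9, the ER co-chaperone ERdj4 that returns IRE1 to its inactive state, was read at 40.1, 44.9 and 43.9 CPM in control and at 34.6, 31.9 and 37.4 CPM in KO libraries. Every KO value was lower, the mean went from 42.9 ± 2.55 to 34.6 ± 2.76 CPM (log2 fold change -0.31, SE 0.083, adjusted p = 0.00491), and it passed 1.3-fold without KO replicate 3 (-0.38). The other 9, including the PERK inhibitor DNAJC3 and the secreted factors MANF and CRELD2, had log2 fold changes from -0.12 to 0.07 and did not pass.

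In ER-associated degradation, HERPUD1, which recruits ubiquitin ligase complexes at the ER membrane, was lower in KO libraries with a log2 fold change of -0.25 (adjusted p = 0.00782). It passed in all 13 alternatives that refitted the model. SEL1L, the scaffold of the ligase HRD1, had a log2 fold change of 0.14 (adjusted p = 0.144). Set against the promoter sequences, the 7 members with either form of the ER stress element had a median log2 fold change of 0.0085 and a range of -0.25 (HERPUD1) to 0.25 (XBP1), with 2 at an adjusted p under 0.05 and 0 called. Of all tested genes, 29.4% had an adjusted p under 0.05 and 16.0% were called. All 7 had a level of at least 30.5 CPM in every library.

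In the heat shock programme the only member called was mitochondrial. HSPE1 (ENSG00000115541.6, chromosome 2, 198364864 to 198368173, plus strand) encodes HSP10, the lid of the chaperonin chamber formed by HSP60. HSPE1 was read at 216, 245 and 229 CPM in control and at 158, 167 and 169 CPM in KO libraries. All KO values were below the lowest control value, and the mean fell from 230.0 ± 14.2 to 164 ± 6.08 CPM (log2 fold change -0.48, SE 0.070, adjusted p = 3.66e-06). HSPD1, which encodes HSP60, had values of 1275, 1289 and 1181 CPM in control and of 1077, 1017 and 1125 CPM in KO libraries. It too was lower in every KO library, by a smaller amount (log2 fold change -0.22, SE 0.072, adjusted p = 0.0210), and did not pass without control replicate 2 (adjusted p = 0.0905) or KO replicate 2 (adjusted p = 0.0898). The ratio of HSPE1 to HSPD1 counts was 0.185 ± 0.0130 in control and 0.154 ± 0.00935 in KO libraries (exact permutation p = 0.1, the smallest possible). HSPA9, the mitochondrial HSP70, had a log2 fold change of 0.03 (adjusted p = 0.796).

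The 2 chaperonin genes stand head to head on chromosome 2. On GRCh38.p14 their RefSeq starts lie 105 bases apart on opposite strands, with 104 bases between them, and these bases are shown because both genes are read outward from them. They held no exact match to the searched motifs. On GRCh37 the annotated span of HSPD1 (198351308 to 198381461, minus strand) runs over HSPE1, and the readthrough gene HSPE1-MOB4 held only 1 to 3 counts per library. The neighbour MOB4 had a log2 fold change of 0.13 (adjusted p = 0.3098).
HSPE1 to HSPD1, chr2:197500275-197500378, shown on the HSPE1 (plus) strand: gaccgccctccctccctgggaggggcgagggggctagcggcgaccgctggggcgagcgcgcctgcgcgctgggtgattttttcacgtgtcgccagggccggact

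HSF1, the master factor of the response, was read at 93.2, 79.1 and 81.9 CPM in control and at 73.4, 78.4 and 73.3 CPM in KO libraries. The lowest control and the highest KO value lay next to each other without overlap. The log2 fold change of -0.17 (SE 0.076, 95% interval -0.33 to -0.02) had an adjusted p of 0.0866 and did not pass, and the values for the 13 alternatives ran from -0.22 to -0.11 with adjusted p from 0.0513 to 0.267. HSF2, its developmental relative, had a log2 fold change of 0.14 (adjusted p = 0.220).

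The stress-inducible HSP70 genes HSPA1A and HSPA1B, a widely used readout of HSF1, were near zero in every library. HSPA1A held 0 to 2 counts and HSPA1B 5 to 12 counts per library, and together they held 8, 7 and 8 counts in control and 14, 8 and 5 counts in KO libraries. Neither gene, nor their sum, passed the filter on low counts, so edgeR with this filter gave them no value. DESeq2, run without that filter, gave HSPA1B a log2 fold change of 0.34 (adjusted p = 0.806) and gave HSPA1A no adjusted p. The transcripts are near copies, with 73.8% of the 75-base windows of HSPA1A present in HSPA1B and 70.2% in the reverse direction. How reads that map to both were treated is not given in the sources used here, and the counts are therefore uncertain. The abundant HSPA8 shared 0 of 2112 such windows with HSPA1A.

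Cytosolic HSP90 and HSP70 chaperones were the most abundant members. Per kilobase of exon, HSP90AB1 led the control libraries with 716 CPM per kilobase, followed by HSPA8 with 512 and HSP90AA1 with 389.9. HSPA8, the constitutive HSC70, had a log2 fold change of 0.08 (adjusted p = 0.420), and HSP90AB1 of 0.06 (adjusted p = 0.555). HSP90AA1, the inducible HSP90, had a log2 fold change of 0.19 (adjusted p = 0.0455), and passed in 5 of 13 alternatives with adjusted p up to 0.165, that value being without KO replicate 3. HSP90AA1 also did not pass without control replicate 1 or 3 and without KO replicate 1 or 2. HSPA4, an HSP110 nucleotide exchange factor, had a log2 fold change of 0.21 (adjusted p = 0.0170), and did not pass without control replicate 2 or 3 and without KO replicate 1 or 3 (adjusted p from 0.0545 to 0.0910). Its relatives HSPA4L and HSPH1 had log2 fold changes of 0.14 and -0.02 and did not pass.

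The 3 co-chaperones of the cytosol did not pass, namely the HSP40 proteins DNAJA1 (log2 fold change -0.15, adjusted p = 0.111) and DNAJB1 (-0.0094, adjusted p = 0.939) and the HSP70 exchange factor BAG3 (0.18, adjusted p = 0.0804). BAG3 passed without control replicate 1 (0.26, adjusted p = 0.00401), and DNAJA1 without control replicate 1 (-0.18, adjusted p = 0.0454) or KO replicate 3 (-0.22, adjusted p = 0.0379).

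Both tested small heat shock proteins, ATP-independent chaperones that hold unfolded clients, were lower in KO libraries. At an adjusted p under 0.05, 14.3% of all tested genes were lower. HSPB8, the partner of BAG3 in chaperone-assisted autophagy, was read at 28.0, 25.9 and 26.7 CPM in control and at 22.4, 19.98 and 20.5 CPM in KO libraries. The groups did not overlap, and the mean fell from 26.9 ± 1.05 to 20.9 ± 1.27 CPM (log2 fold change -0.36, SE 0.087, adjusted p = 0.00199), under 1.3-fold. It passed 1.3-fold without control replicate 2 (-0.39) and without KO replicate 1 (-0.41). HSPB1, which encodes HSP27, had a log2 fold change of -0.25 (adjusted p = 0.0411) with overlapping groups and a KO range of 262 to 367 CPM. It did not pass with DESeq2 (adjusted p = 0.0589), without control replicate 1 or 2 (0.287 and 0.0644) and without KO replicate 1 or 3 (0.261 and 0.0966). CRYAB, alpha B-crystallin, held 0 to 2 counts per library and was not tested.

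**Figure D3:**
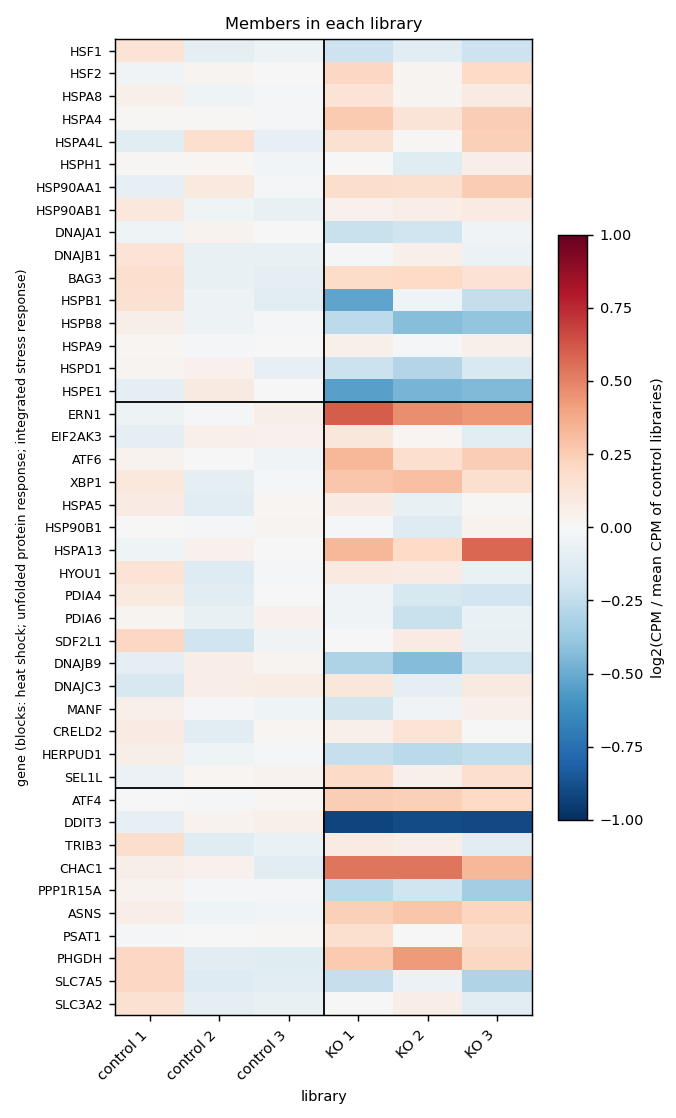
Log2 ratio of CPM to the mean of the control libraries for the 43 tested members (rows, in 3 blocks for heat shock, unfolded protein response and integrated stress response) in 6 libraries (columns); red is higher, blue is lower. DDIT3 is dark blue in all 3 KO libraries, and the control 1 column is the reddest of the 3 controls for 25 of 43 members.

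The heat map of single libraries also shows a difference within the control group. Control replicate 1 had the highest value of the 3 controls for 25 of the 43 tested members (58.1%), beside 40.7% of all tested genes, and for 7 of the 10 members of the integrated stress response. The members with the largest excess, singled out after their values were seen, were SLC7A5 and PHGDH at 1.26 times the mean of control replicates 2 and 3, SDF2L1 at 1.25 and TRIB3 at 1.21 times. The 4 called members were also called without this library, and DDIT3, HSPE1 and ERN1 had their lowest control value in it. Among the KO libraries, replicates 1 to 3 were highest for 37.2%, 32.6% and 30.2% of the members, beside 34.0%, 35.6% and 30.4% of all tested genes. By programme, KO replicate 1 was highest for 10 of 17 unfolded protein response members. KO replicate 2 was highest for 7 of 10 of the integrated stress response, and KO replicate 3 for 8 of 16 of the heat shock genes.

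Genes of the same pathways outside the 46 members were then counted. A list of 156 such genes was used, of which 149 were tested, and 15 of these rose and 5 fell (13.4%, beside the 16.0% given above for all tested genes). By direction, 10.1% were called higher, beside 7.57% of all tested genes, and the 5 called lower stand beside 8.39%. Without the fold threshold 38 were higher (25.5%) and 14 lower (9.40%) at an adjusted p under 0.05, beside 15.2% and 14.3% of all tested genes. For the other genes of the unfolded protein response these shares were 35.8% higher and 5.66% lower. The median log2 fold change of the 149 genes was 0.064. By list, the medians were 0.052 for 46 other chaperone genes, 0.098 for 53 other genes of the unfolded protein response and 0.055 for 50 other genes of the integrated stress response.

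The other genes of the unfolded protein response held the lowest log2 fold change of these lists, and 6 of the 53 rose (11.3%, beside the 7.57% of all tested genes). DERL3, derlin-3 of the ER-associated degradation channel, was read at 36.6, 34.2 and 32.9 CPM in control and at 7.50, 8.80 and 6.80 CPM in KO libraries, and fell by 2.16 on the log2 scale (SE 0.10, adjusted p = 4.43e-16). It stood well under the control range in each KO library and was the only one of the 7 called genes of this list that fell. WFS1, the ER membrane protein wolframin, rose from 84.1, 63.8 and 66.0 CPM to 114, 124 and 105 CPM (log2 fold change 0.68, adjusted p = 5.93e-07). SSR1, a subunit of the translocon-associated protein complex, rose from 315, 318 and 311 CPM to 451, 420.4 and 487 CPM (0.52, adjusted p = 1.02e-06). The prolyl isomerase FKBP14 and the retrieval receptor KDELR3 rose by log2 fold changes of 0.55 and 0.43.

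Of the other cytosolic and mitochondrial chaperone genes, 2 rose and 2 fell (8.70%, beside 16.0% of all tested genes). HSPA12A, a distant HSP70 relative, was read at 7.04, 6.67 and 6.996 CPM in control and at 15.9, 16.6 and 15.7 CPM in KO libraries (log2 fold change 1.22, SE 0.10, adjusted p = 1.65e-10), which made it the only one of the 149 to rise more than 2-fold. FKBP5, an HSP90 immunophilin that glucocorticoid receptor induces, rose by 0.63. BAG1, an HSP70 exchange factor, and HSF4, a heat shock factor, had log2 fold changes of -0.48 and -0.53.

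In the other genes of the integrated stress response, 7 of 50 rose, beside 7.57% of all tested genes, and 2 fell, beside 8.39%. In either direction 9 of the 50 were called, beside 16.0% of all tested genes. The 5 with the smallest p were STC1, a secreted glycoprotein (log2 fold change 0.61), the neutral amino acid transporter SLC1A4 (0.57), the leucyl-tRNA synthetase LARS (0.39), the ubiquitin ligase adaptor KLHL24 (-0.43) and cystathionine beta-synthase CBS (0.55). At an adjusted p under 0.05 alone, 11 were higher (22.0%) and 8 lower (16.0%), beside 15.2% and 14.3% of all tested genes.

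**Figure D4:**
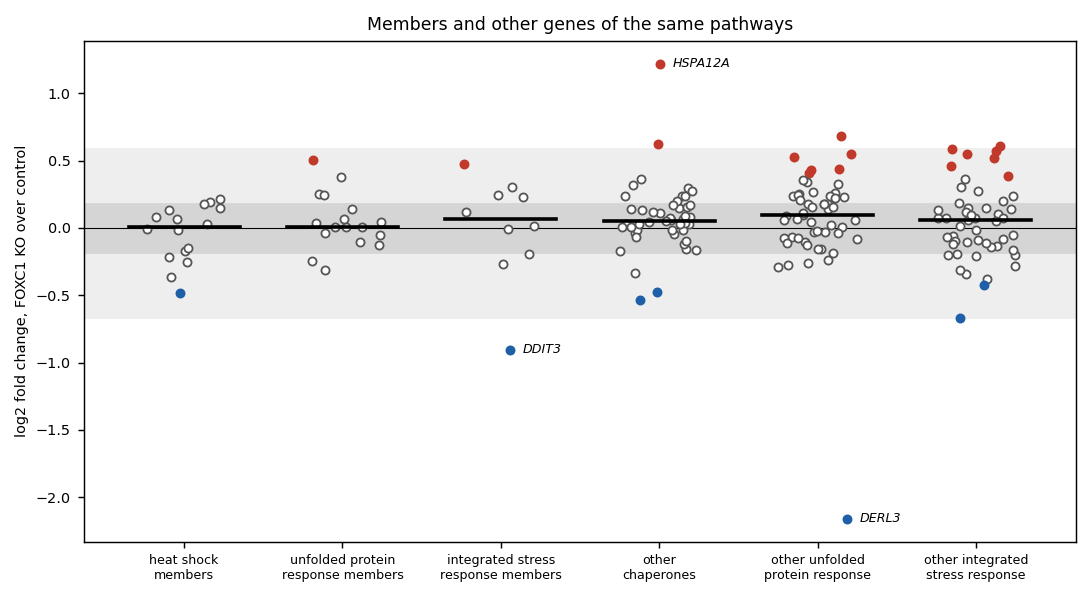
Log2 fold change of FOXC1 KO over control (y axis) for each tested gene of the 3 member groups and of the 3 lists of other pathway genes (x axis), with black bars at the medians, grey bands for the middle 50% and middle 90% of all tested genes, red for genes called higher and blue for genes called lower. All 6 medians lie between 0.0092 and 0.098, and the 3 genes labelled in the plot are DERL3 at -2.16, HSPA12A at 1.22 and DDIT3 at -0.91.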

How the data were processed

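The authors deposited 1 table of raw counts per gene for the 6 libraries (KAPA mRNA HyperPrep, paired reads of 75 bases). Per the study's methods, reads were aligned to hg19 with STAR and counted with featureCounts (Subread) on GENCODE version 19. Versions, strand and multiple mapping settings are not given in the sources used here, so near-identical and overlapping genes are uncertain. The table held 0 columns of other samples. Every row named a gene.

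Groups came from sample titles. Symbols and GRCh37 coordinates came from GENCODE release 44 lifted to GRCh37, which matched 55538 identifiers (96.05%). Genes passing filterByExpr (15647) entered edgeR 4.0.16 (R 4.3.3) with TMM normalization and group as the sole term, and its quasi-likelihood F test (robust) was adjusted over all of them by Benjamini-Hochberg. CPM used TMM-scaled library sizes, means carry the SD over 3 libraries, and SE is the log2 fold change divided by the root of F. The study used DESeq2, run here as an alternative (1.42.0). Libraries of a group differed beyond sampling noise (chi-square per gene 2.94 to 10.1). Low counts carry counting error besides.

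The members, the pathway lists, the motifs and the rule for naming genes were chosen with earlier results of these data known. Called members, the 5 smallest p among members that passed under 1.3-fold, and HSF1, HSPA1A, HSPA1B, HSPA5, XBP1, ATF4 and DDIT3 were given per library. HSPD1 was added after its values were seen, for its shared promoter, and up to 5 called genes were named per other list. Alternatives covered the tool (DESeq2), scaling by RLE or by library size only, dropping the filter or asking for a mean of at least 50 counts, the replicate number as a block, HSPA1A and HSPA1B summed, each library left out in turn, and other fold thresholds.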

Additional observations from a re-analysis of the deposited data

How the results depend on the processing

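The 4 called members (DDIT3, HSPE1, ERN1, CHAC1) were called in all 13 alternatives that refitted the model. Member counts depended on the fold threshold. Without one, 8 members were lower and 10 higher, and over 2-fold 0 and 0 (for the 43 tested members DESeq2 also gave 0), and for the other pathway genes the counts were 14 lower and 38 higher, and 1 and 1. Leaving out each library in turn gave 2 to 3 members lower and 2 to 3 higher, and 5 lower (in every case) and 14 to 17 higher among the other pathway genes. HSPA5 changed sign around zero, at -0.0044 with a mean of at least 50 counts, -0.044 without control replicate 2 and -0.033 without KO replicate 1, up to 0.049 without KO replicate 2, with adjusted p of 0.694 or more throughout. PHGDH, XBP1 and ATF4 each fell short of the adjusted p in 1 alternative and FOXC1 in 2, as given above. Under other scalings the median log2 fold change over all genes stayed between -0.0090 and -0.00084.

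The sources used here do not say whether same-numbered replicates of the 2 groups were handled together. The correlations of their deviations from the group means were -0.03, -0.07 and 0.05, which cannot show how they were handled. With the replicate number as a block, 2 members were called lower and 2 higher, with 1200 genes higher and 1351 lower over all, against 1184 and 1313 without it. The low counts of HSPA1A, HSPA1B and CRYAB kept them out of every comparison with the filter on.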
